A study of Rattus norvegicus with 24 samples.

Results

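Integrin alpha 4, encoded by Itga4, was followed in the rat urethra together with 7 partner genes, and these 8 genes were taken by symbol from a table of 32883 genes. The set was chosen from these data because Itga4 was high after both cell treatments at 3d, so its own values at 3d are a description and carry no test. Its partners are Itgb1 and Itgb7, the beta subunits with which alpha 4 pairs, Itga9, its closest relative, Itga5 and Itgav, alpha subunits of fibronectin receptors, and Vcam1 and Fn1, which encode ligands. They were named for their binding, not for their values. The urethras came from 24 female virgin Sprague–Dawley rats 12 weeks old, all of which had simulated vaginal delivery (SVD), a pudendal nerve crush followed by vaginal distension. At 1 h after injury the rats received saline, allogeneic mesoangioblasts (MABsallo) or allogeneic mesoangioblasts overexpressing VEGF (MABsallo-VEGF) into the aorta, and tissue was taken at 3d or 7d, with 4 rats in each of 6 groups. Mesoangioblasts are vessel-associated progenitor cells, here grown from the hind limb muscle of another rat, transduced to make eGFP and firefly luciferase and sorted for GFP. In MABsallo-VEGF a second lentivirus drove VEGF165 and a truncated CD34 from the SFFV promoter, so that the genotype "VEGF OE" in the labels belongs to the injected cells and not to the rats. The labels name 2 of the MABsallo-VEGF urethras at 7d, replicates 6 and 7, as recovered.

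Integrins are receptors of 1 alpha and 1 beta chain that tie a cell to matrix or to another cell and pass signals inward. Alpha 4 joins beta 1 to form VLA-4, which binds VCAM-1 on activated endothelium and a connecting segment of fibronectin, or beta 7 to form a receptor for the mucosal addressin MAdCAM-1. In adult tissue it is known best for letting lymphocytes, monocytes and eosinophils leave the blood, and it also appears on neural crest, on myogenic and other progenitors and on developing muscle. Alpha 9 is its nearest relative and shares some of its ligands. Alpha 5 and alpha v recognise the RGD sequence of fibronectin, and alpha v also that of vitronectin and latent TGF-beta.

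The values are normalized gene counts, that is, reads counted on a gene and divided by the size factor of the library. Libraries held 2170695 to 10166052 reads, fewest in MABsallo at 3d (2170695 to 4491900), and 1 read was worth 1.67 to 9.23 normalized counts. At 3d, 2 libraries departed from the others of their group. Saline replicate 6 had 0.00434% of its reads on 7SL-type RNA, the RNA of the signal recognition particle, against 2e-05% to 0.0001% in the other 3, and MABsallo-VEGF replicate 4 had 5e-05% against 0.00309% to 0.0211%. Both also lay apart from their groups in Itga4 itself, so the values without them, given below as those of 22 libraries, show how far these 2 libraries set a result and are no independent support for it. Whether the 2 carry each other's label was not tested, and the labels were kept. With these 2 libraries included, the summed counts of 10 myogenic markers at 3d were at least 13198 in MABsallo-VEGF and at most 9696 in saline. The sums of leukocyte, endothelial, fibroblast, Schwann cell, smooth muscle, striated muscle and urothelial markers overlapped between these groups. The lists were chosen with earlier results known, so these sums are no test of the labels. A tissue sample with fewer cells of a type and one with less RNA in each cell cannot be told apart here.

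Itga4 (ENSRNOG00000004861) was high in the urethra at 3d after either cell injection and close to absent at 7d. In MABsallo at 3d it had normalized counts of 284, 432, 452 and 174 in replicates 1 to 4. In MABsallo-VEGF at 3d it had 297, 417, 308 and 26.7. In saline at 3d the counts were 141 in replicate 6, 23.5 in replicate 8, 3.57 in replicate 9 and 42.2 in replicate 10. All 4 MABsallo libraries and the first 3 of MABsallo-VEGF were therefore above every saline library, whereas MABsallo-VEGF replicate 4 lay within the saline range. At 7d no library passed 15.8 normalized counts, which stood for 0 to 5 reads. The counts at 7d were 3.38, 0, 3.35 and 6.29 in saline, 0, 3.31, 6.67 and 0 in MABsallo, and 3.63, 5.70, 6.21 and 15.8 in MABsallo-VEGF.

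In order of their means, Itga4 had 336 ± 131 normalized counts in MABsallo at 3d, 262 ± 166 in MABsallo-VEGF at 3d and 52.6 ± 61.1 in saline at 3d (SD, n = 4). The order ended with 7.83 ± 5.41 in MABsallo-VEGF, 3.26 ± 2.57 in saline and 2.50 ± 3.19 in MABsallo, all at 7d. The first 2 groups overlapped, MABsallo-VEGF and saline at 3d overlapped through MABsallo-VEGF replicate 4, saline at 3d reached down into the range of 7d, and the 3 groups of 7d overlapped one another. The mean of MABsallo at 3d was 6.38 times that of saline and the mean of MABsallo-VEGF 4.98 times, and without the 2 libraries that stood apart the ratios were 14.5 and 14.7. On the log2 scale, after adding 1 to each count, the differences from saline were 3.45 (SE 0.98) and 2.65 (SE 0.98) with 24 libraries and 4.22 (SE 0.87) and 4.32 (SE 0.93) with 22. Both differences share the saline libraries. Every saline library at 7d had 3 reads or fewer. The mean of saline at 3d was 5.67 times the value of 3 reads in those libraries, or 2.49 times without replicate 6. Only the 7d side has this allowance for counting error, and saline 3d replicate 9, with 1 read, lay within the range of 7d.

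Because Itga4, Itga9 and Itgav turned out to be high in the same libraries, the stretch at the start of each gene is shown, from 250 bases before the RefSeq transcript start to 50 after it. These windows come from RefSeq on the build GRCr8, which is not the build Rnor6.0 of the counts, and 7 of the 8 genes were matched, all but Fn1. Capitals mark 4 motifs searched for on both strands. The TATA box was taken as TATAAA, which 14.2% of the 33469 windows in the table hold. For the GC box the letters were GGGCGG, held by 33.1% of windows. The core of an Ets site was taken as CCGGAA, in 15.0% of windows. The kappa B site was searched for by its outline alone, 3 G and 3 C with any 4 bases between them, which 11.6% of windows hold. Where 2 motifs overlap, the capitals run on. The window of Itga4 is chr3:84569765-84570064 on the plus strand.
Itga4: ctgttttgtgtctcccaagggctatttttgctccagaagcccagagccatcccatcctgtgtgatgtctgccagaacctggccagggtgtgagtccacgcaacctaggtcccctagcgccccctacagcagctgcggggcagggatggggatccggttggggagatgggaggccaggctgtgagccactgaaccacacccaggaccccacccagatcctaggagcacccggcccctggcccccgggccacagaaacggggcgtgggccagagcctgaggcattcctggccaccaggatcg
It holds none of these letters and 9 CpG, where the median window of the table holds 7.

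**Figure D1:**
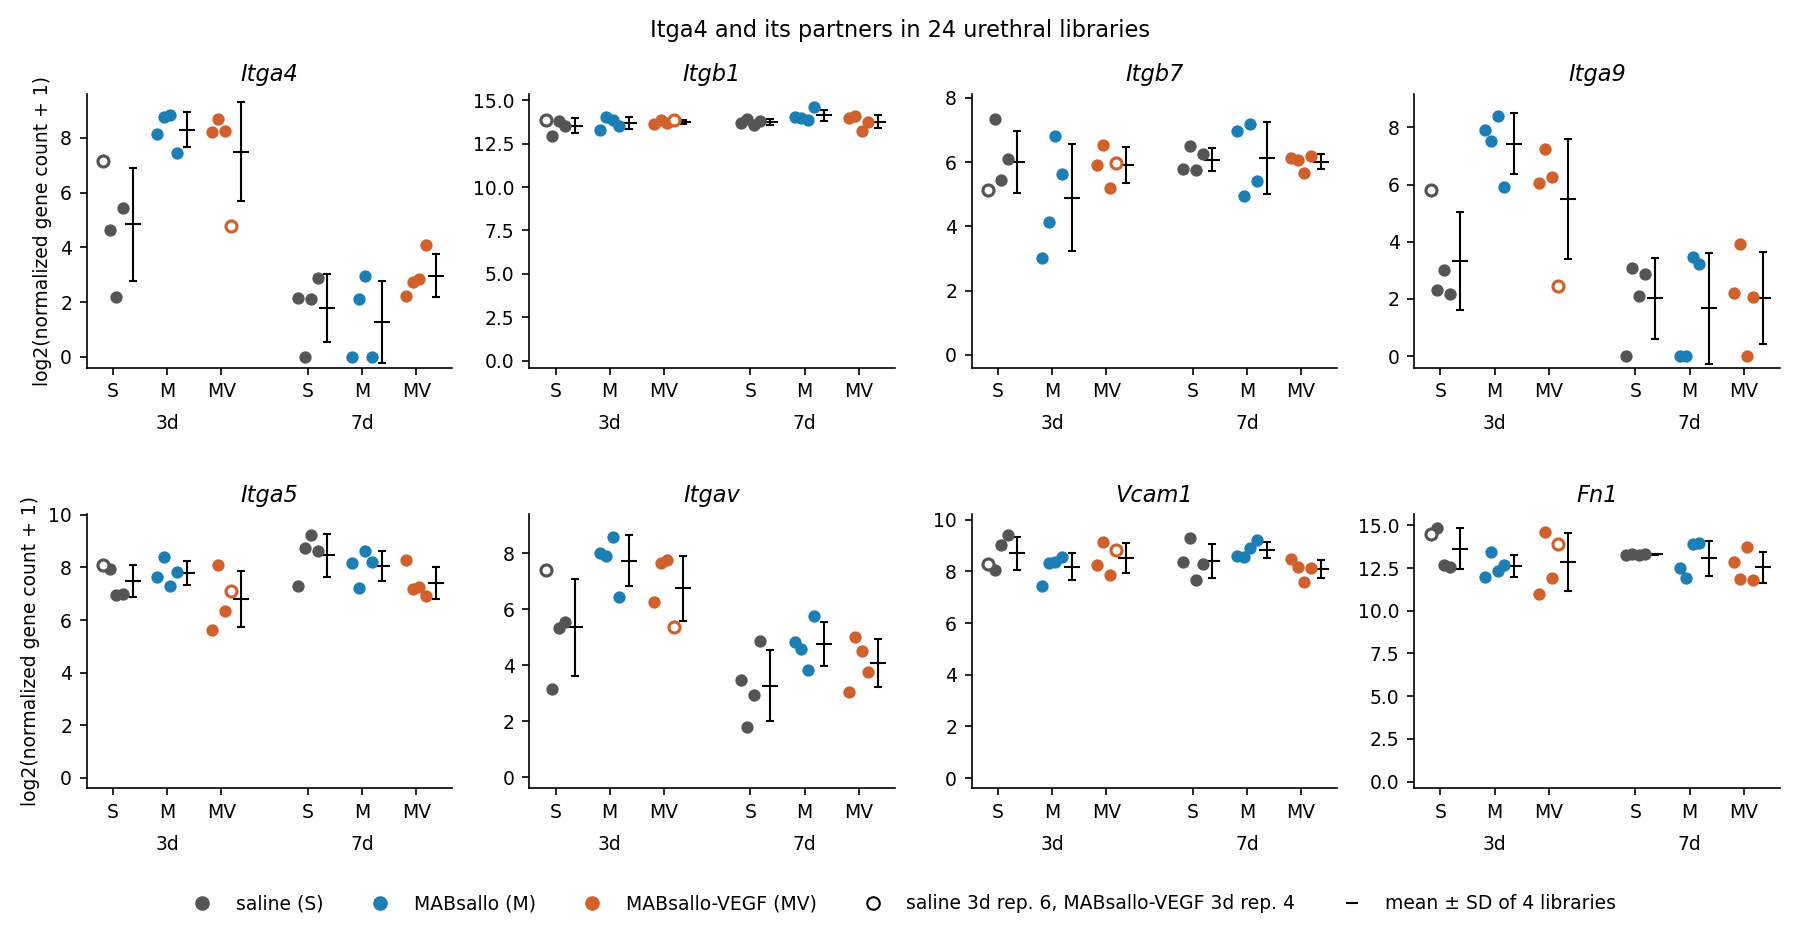
Normalized gene counts of the 8 genes on a log2(count + 1) scale (vertical axes) in the 6 groups (horizontal axes: S, saline; M, MABsallo; MV, MABsallo-VEGF; at 3d and 7d), 1 point for each library, with the mean and SD of the 4 libraries in black. Open points are saline 3d replicate 6 and MABsallo-VEGF 3d replicate 4. Itga4, Itga9 and Itgav stand high in the 3d cell-treated groups and overlap with saline at 3d through the open points. The other 5 genes overlap between the 3 treatments at 3d.

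Itga9 (ENSRNOG00000043167), the alpha subunit that like alpha 4 can bind VCAM-1, was high in the same groups as Itga4, with the same 2 exceptions. Its normalized counts at 3d were 241, 181, 332 and 59.7 in MABsallo and 64.9, 150.02, 75.7 and 4.45 in MABsallo-VEGF. Saline at 3d had 55.1 in replicate 6 and 3.92, 7.15 and 3.52 in the others. Every MABsallo library was above every saline library, and MABsallo-VEGF replicate 4 again lay within the saline range. At 7d Itga9 ranged from 0 to 14.3 over the 12 libraries, 0 to 6 reads.

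Itgav (ENSRNOG00000004912), the alpha v subunit, had 256, 241, 388 and 86.8 normalized counts in MABsallo at 3d. In MABsallo-VEGF at 3d it had 75.7, 200.03, 217 and 40.1. Saline at 3d had 169 in replicate 6 and 7.84, 39.3 and 45.7 in the others. The MABsallo and saline ranges overlapped through replicate 6, whose count was above that of MABsallo replicate 4. At 7d Itgav was lower but not absent, with 2.49 to 28.3 in saline, 13.3 to 54.0 in MABsallo and 7.26 to 31.4 in MABsallo-VEGF.

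The windows of these genes are chr8:127185039-127185338 for Itga9 and chr3:89245132-89245431 for Itgav, both on the plus strand of GRCr8.
Itga9: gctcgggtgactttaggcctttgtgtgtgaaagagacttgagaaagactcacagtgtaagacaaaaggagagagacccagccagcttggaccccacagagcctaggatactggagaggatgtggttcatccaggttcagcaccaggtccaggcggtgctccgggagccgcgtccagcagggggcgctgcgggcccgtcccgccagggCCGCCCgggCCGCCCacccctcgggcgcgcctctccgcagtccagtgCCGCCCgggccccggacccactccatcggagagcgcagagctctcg
Itgav: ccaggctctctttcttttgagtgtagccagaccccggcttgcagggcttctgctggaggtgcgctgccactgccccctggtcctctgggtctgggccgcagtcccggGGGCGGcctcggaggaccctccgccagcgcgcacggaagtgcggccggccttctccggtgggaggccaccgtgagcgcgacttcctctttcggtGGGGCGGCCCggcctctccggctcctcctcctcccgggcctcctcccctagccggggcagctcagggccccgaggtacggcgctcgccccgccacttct
Itga9 holds 3 GC boxes and 22 CpG, and Itgav 2 GC boxes and 27 CpG, the second GC box lying inside a match to the kappa B outline. No motif of the 4 was found in all of Itga4, Itga9 and Itgav, which says only that these letters are not in these windows.

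The beta subunits of alpha 4 were called in no comparison in the limma fits of 24 or 22 libraries. Itgb1 (ENSRNOG00000010966), which also pairs with alpha 5, alpha v, alpha 9 and many other alpha chains, was read at least 1430 times in every library. Its counts at 3d were 7722 to 14941 in saline, 10153 to 16708 in MABsallo and 12777 to 15099 in MABsallo-VEGF, and 9769 to 24655 over all 12 libraries of 7d. The 3 treatments overlapped at each day.

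Itgb7 (ENSRNOG00000012208), the beta chain of the gut-homing receptor, had 34.4, 161, 42.9 and 66.9 normalized counts in saline at 3d. It had 7.10, 16.4, 111 and 48.8 in MABsallo and 59.5, 91.7, 35.3 and 62.3 in MABsallo-VEGF. MABsallo replicates 1 and 2, with 1 and 3 reads, were the lowest of all 24 libraries, and the other 2 lay within the saline range. At 7d it was 53.6 to 89.6 in saline, 29.8 to 145 in MABsallo and 49.7 to 72.5 in MABsallo-VEGF.

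Itga5 (ENSRNOG00000057451), the alpha chain of the classical fibronectin receptor, had 269, 243, 122 and 127 normalized counts in saline at 3d. It had 199, 339, 157 and 228 in MABsallo and 48.7, 275, 80.7 and 138 in MABsallo-VEGF, so the 3 groups overlapped. At 7d it had 156, 421, 596 and 393 in saline, 285, 149, 392 and 295 in MABsallo, and 312, 143, 152 and 120 in MABsallo-VEGF. Of the MABsallo-VEGF libraries at 7d only the recovered replicate 6 exceeded the lowest saline count, and the other recovered replicate, 7, lay between the 2 that were not recovered.

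Vcam1 (ENSRNOG00000014333) encodes the endothelial ligand of VLA-4, which inflammatory cytokines induce, and is shown because its window holds a pair of kappa B outlines next to each other, the arrangement for which this gene is known. The window is chr2:206742734-206743033 on the minus strand of GRCr8.
Vcam1: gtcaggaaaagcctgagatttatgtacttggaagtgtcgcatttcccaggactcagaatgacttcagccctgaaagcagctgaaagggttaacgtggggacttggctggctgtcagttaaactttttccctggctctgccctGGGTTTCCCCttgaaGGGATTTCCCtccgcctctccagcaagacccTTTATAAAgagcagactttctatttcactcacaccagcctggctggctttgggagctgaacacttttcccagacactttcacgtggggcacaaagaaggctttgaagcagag
The outlines are at bases 143 to 152 and 158 to 167, counted from 1 at the 5ʹ end of the window, and 2 overlapping TATAAA matches follow them. The counts of Vcam1 at 3d were 310, 267, 518 and 679 in saline, 170, 323, 332 and 380 in MABsallo, and 303, 558, 232 and 450 in MABsallo-VEGF. No treatment stood apart. At 7d they were 204 to 622 in saline, 371 to 589 in MABsallo and 192 to 352 in MABsallo-VEGF. The last 2 did not overlap, and differed by -0.72 (SE 0.36, limma adjusted p = 1).

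Fn1 (ENSRNOG00000014288), which encodes fibronectin, varied widely within the groups of 3d. Saline had 23019 and 29507 in replicates 6 and 8 but 6551 and 6014 in replicates 9 and 10. MABsallo had 3948, 11253, 5050 and 6553, and MABsallo-VEGF had 2017, 25453, 3885 and 15308. At 7d saline kept to 9748 to 10380, with an SD of 282, while MABsallo ran from 3904 to 16094 and MABsallo-VEGF from 3546 to 13381. The groups overlapped at both days.

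The first question was what each cell treatment did to the partners at 3d. These contrasts and libraries also chose Itga4, so the partners' tests are not independent of that choice. Differences were tested with limma on log2(count + 1) over all genes, and called genes had an adjusted p under 0.05 and differed by more than 1 on the log2 scale. Between MABsallo and saline 12.3% of all genes were called, and 2 of the 7 partners. Itga9 was higher in MABsallo by 4.10 on the log2 scale (SE 1.13, adjusted p = 0.0203, higher in 4 of 4 libraries). Itgav was higher by 2.39 (SE 0.81, adjusted p = 0.0476), a call that DESeq2 (adjusted p = 0.0514) and edgeR (adjusted p = 0.103) did not make. With 22 libraries 18.1% of genes were called and the same 2 partners, by 4.93 (SE 1.03, adjusted p = 0.00182) and 3.07 (SE 0.78, adjusted p = 0.00717). The saline libraries without replicate 6 each had 3 reads or fewer of Itga9, and the MABsallo mean was 18.5 times the value of 3 reads in them. A fit of the 2 groups alone called neither partner (adjusted p = 0.0608 for Itga9 and 0.113 for Itgav). Single libraries also decided these calls: Itga9 was not called without saline replicate 8, 9 or 10 or MABsallo replicate 1 or 3 (adjusted p = 0.0507 to 0.0818), nor was Itgav without any of these or MABsallo replicate 2 (adjusted p = 0.0716 to 0.214).

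Between MABsallo-VEGF and saline at 3d limma called 0 of the 7 partners and 0.0307% of all genes, with 0 partners at an unadjusted p below 0.05. DESeq2 and edgeR called 0 partners too. Over all genes DESeq2 called more than limma and edgeR fewer, with the numbers in the closing section. Itga9 differed by 2.17 (SE 1.13, adjusted p = 0.318) and Itgav by 1.40 (SE 0.81, adjusted p = 0.373). With 22 libraries 13.6% of genes were called and both partners, Itga9 by 4.01 (SE 1.10, adjusted p = 0.0152) and Itgav by 2.55 (SE 0.83, adjusted p = 0.0388). The MABsallo-VEGF mean of Itga9 was then 8.80 times the value of 3 reads in the saline libraries. Whether the partners were called in MABsallo-VEGF thus depended on the 2 libraries that stood apart.

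The remaining 5 partners were called in neither comparison. Itgb1 differed by 0.15 (SE 0.23, adjusted p = 0.686) in MABsallo and by 0.24 (SE 0.23, adjusted p = 0.636) in MABsallo-VEGF. Itgb7 differed by -1.11 and -0.10 (SE 0.67 for both) and Itga5 by 0.31 and -0.68 (SE 0.48). Vcam1 differed by -0.52 and -0.18 (SE 0.36), with 95% intervals of -1.26 to 0.23 and -0.92 to 0.56. Fn1 differed by -1.05 and -0.78 (SE 0.66). These errors leave room for differences of 2-fold and more in Itgb7, Itga5 and Fn1, and in Vcam1 for MABsallo.

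The second question was whether VEGF changed the response to the cells. Between MABsallo-VEGF and MABsallo at 3d limma called 0.00614% of genes with 24 libraries and 0.0184% with 22. No partner was called in limma, DESeq2 or edgeR, and with 24 libraries 0 had an unadjusted p below 0.05. Itga4 differed by -0.80 (SE 0.98) with 24 libraries and 0.10 (SE 0.87) with 22. Itga9 differed by -1.94 (SE 1.13, adjusted p = 0.851) and Itga5 by -0.99 (SE 0.48, adjusted p = 0.811). With 22 libraries only Itga5 had an unadjusted p below 0.05, at -1.10 (SE 0.53, adjusted p = 1).

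**Figure D2:**
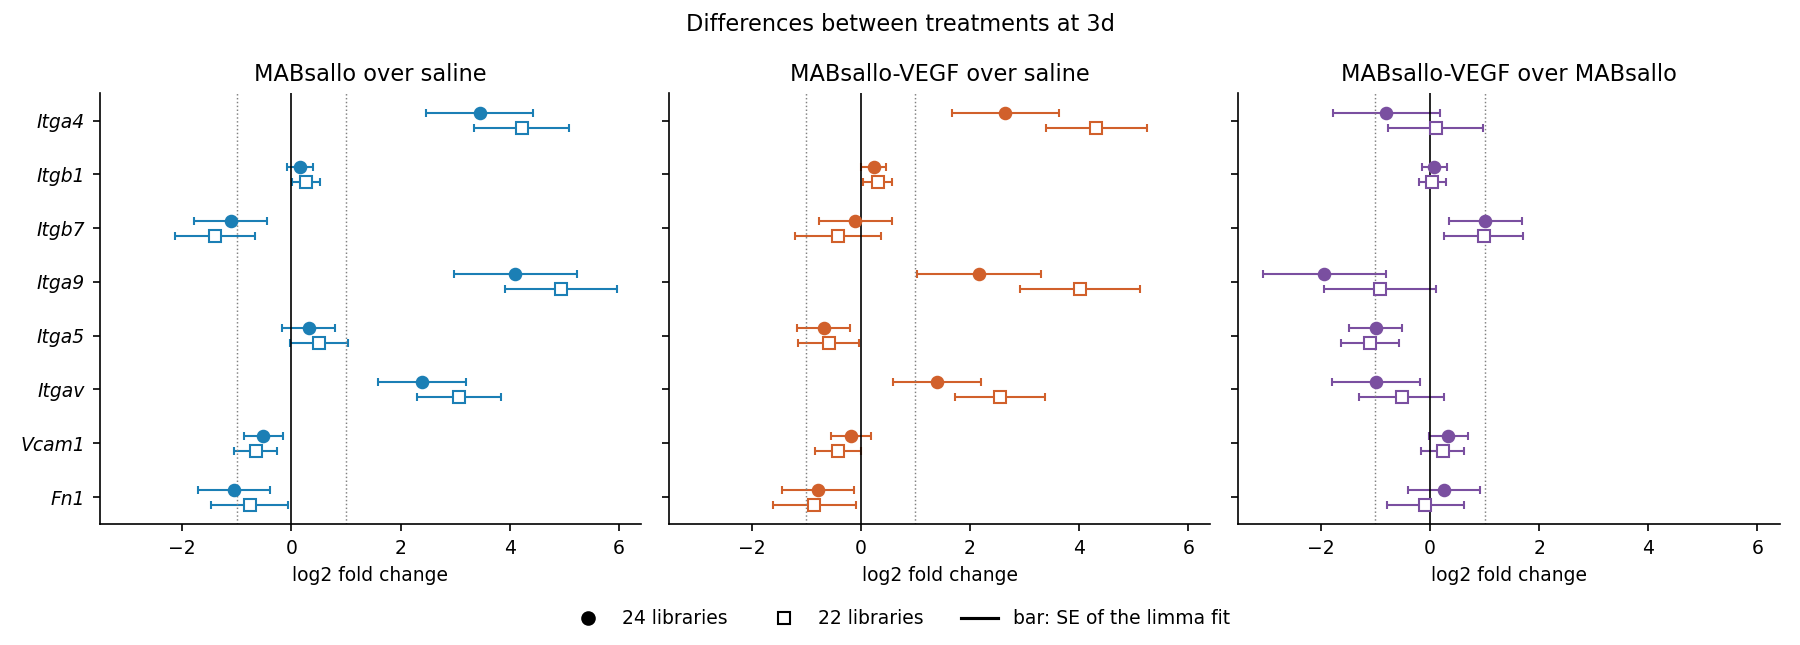
Log2 fold changes (horizontal axes) of the 8 genes (vertical axis) between treatments at 3d, with the standard error of the limma fit as bars; filled circles are from 24 libraries and open squares from 22, and dotted lines mark 1 and -1. Itga4, Itga9 and Itgav lie to the right of 1 in both comparisons with saline, and in these comparisons the other 5 genes lie nearer 0.

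Within a treatment, 3d was set against 7d. In MABsallo 23% of all genes were called, and 2 of the 7 partners. Itga9 was higher at 3d by 5.76 (SE 1.13, adjusted p = 0.000681) and Itgav by 2.98 (SE 0.81, adjusted p = 0.00738). Itgb7 stood at -1.23 (SE 0.67, adjusted p = 0.171), and was called as lower at 3d with quantile normalization (-2.07, adjusted p = 0.0272) and without MABsallo 3d replicate 3 (-1.87, adjusted p = 0.0375). In MABsallo-VEGF 15.3% of genes were called and the same 2 partners, Itga9 by 3.45 (SE 1.13, adjusted p = 0.0335) and Itgav by 2.68 (SE 0.81, adjusted p = 0.0216). With 22 libraries 20.3% of genes were called in MABsallo-VEGF, and these 2 differences were 4.46 (adjusted p = 0.00262) and 3.14 (adjusted p = 0.0046). With 24 libraries the call of Itga9 in MABsallo-VEGF was lost without any of replicates 1, 2 and 3 of 3d or 6, 11 and 12 of 7d (adjusted p = 0.0567 to 0.12), and that of Itgav without replicate 2 or 3 of 3d or 6 or 12 of 7d (adjusted p = 0.0526 to 0.0771).

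In saline 3.19% of genes were called with 24 libraries and 0.19% with 22, and limma called none of the 7 partners in either. With 24 libraries Itgav was the only partner with an unadjusted p below 0.05, and with 22 it was Itga5 (-1.18, SE 0.53, adjusted p = 0.326). Quality weights, used with 24 libraries, called both, Itga5 at -1.31 (adjusted p = 0.0188) and Itgav at 2.31 (adjusted p = 0.0135). Without weights Itgav was higher at 3d by 2.08 (SE 0.81, adjusted p = 0.151) and was called by DESeq2 (adjusted p = 0.0214) but not by edgeR (adjusted p = 0.0622). Without saline 3d replicate 8 limma called it too, at 2.82 (adjusted p = 0.0218). Itga9 differed by 1.31 (SE 1.13, adjusted p = 0.578). Itga4 itself differed between the days by 7.03 in MABsallo, 4.53 in MABsallo-VEGF and 3.07 in saline (SE 0.98 for each), given as values only.

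**Figure D3:**
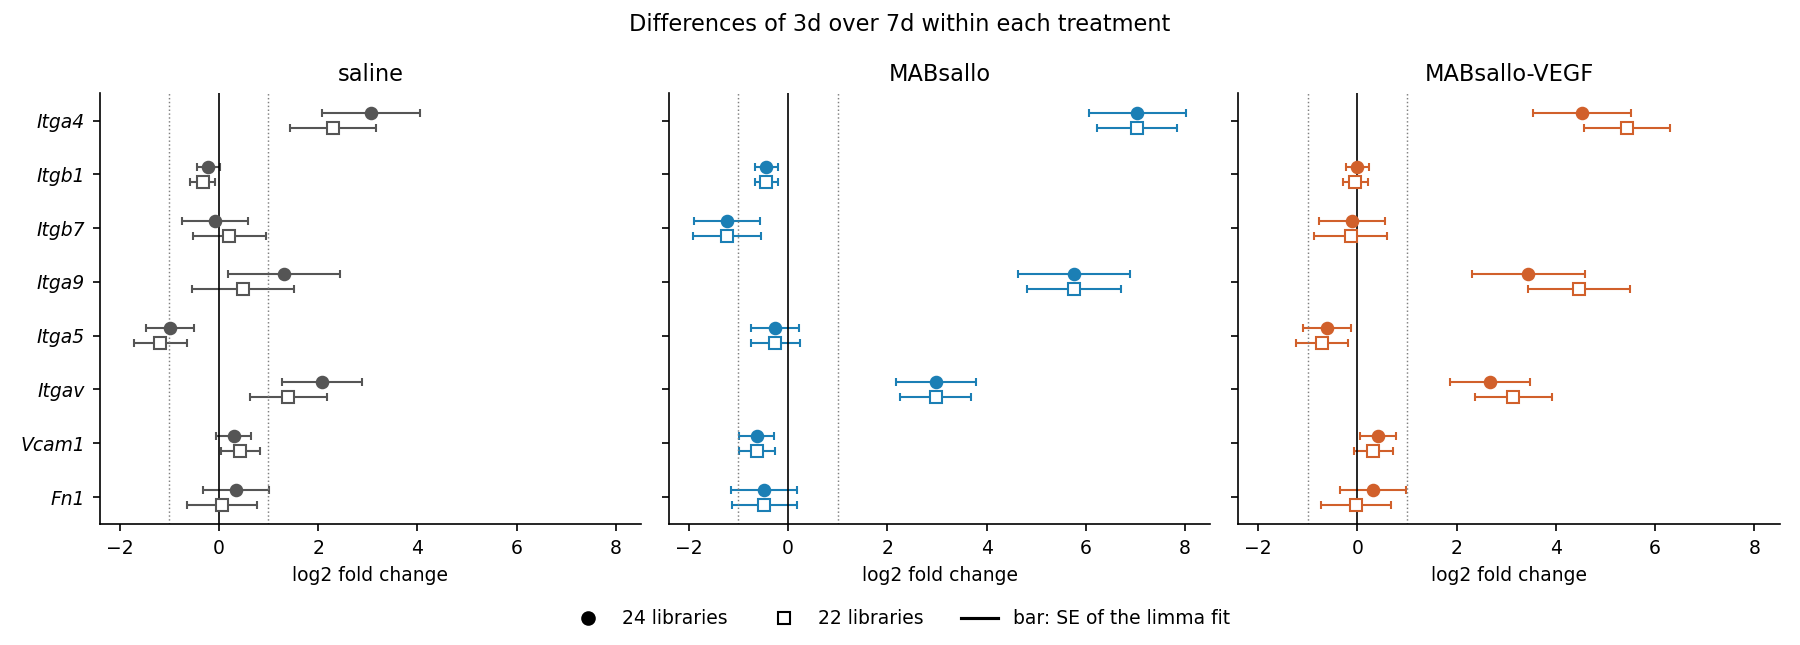
Log2 fold changes of 3d over 7d (horizontal axes) for the 8 genes (vertical axis) within saline, MABsallo and MABsallo-VEGF, drawn as in the plot of differences between treatments. Itga4, Itga9 and Itgav lie to the right in all 3 panels, and the other 5 genes lie nearer 0 than these 3 in MABsallo and MABsallo-VEGF.

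Whether a difference from saline at 3d differed from that at 7d was tested as an interaction of treatment and day. With 24 libraries limma called 0% of genes for either treatment, and no partner was called by limma, DESeq2 or edgeR, although over all genes DESeq2 called 78 for MABsallo and 1 for MABsallo-VEGF. The interaction of Itga9 for MABsallo was 4.45 (SE 1.60, adjusted p = 0.248), the only one of the partners with an unadjusted p below 0.05. With 22 libraries 3.56% of genes were called for MABsallo, with Itga9 among them at 5.28 (SE 1.40, adjusted p = 0.0383), which DESeq2 also called and edgeR did not (adjusted p = 0.0089 and 0.0755). For MABsallo-VEGF 3.59% were called with no partner, and Itga9 stood at 3.98 (SE 1.45, adjusted p = 0.133). Itgav was not called in either, at 1.58 (SE 1.06) and 1.74 (SE 1.10).

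At 7d, which did not enter the choice of the set, all 8 genes were tested, and limma called 0% of all genes between any 2 treatments. None of the 8 was called by limma, DESeq2 or edgeR, although over all genes DESeq2 called 26 in MABsallo-VEGF against saline and 4 in MABsallo-VEGF against MABsallo. With limma and 24 libraries 0 of the 8 had an unadjusted p below 0.05 in MABsallo against saline or in MABsallo-VEGF against MABsallo, and 1 in MABsallo-VEGF against saline. With 22 libraries 1 had in each, Itgav in MABsallo against saline (1.49, SE 0.72, adjusted p = 0.692), Itga4 in MABsallo-VEGF against MABsallo (1.71, SE 0.81, adjusted p = 1) and Itga5 in MABsallo-VEGF against saline. In MABsallo-VEGF against saline Itga5 differed by -1.06 (SE 0.48, adjusted p = 0.76) with 24 libraries. No library of 7d was left out in the fit of 22, so the 7d counts and their differences were the same in both fits. Only the error, pooled over the groups of both days, changed, for Itga4 from 0.98 to 0.81. The libraries left out lay apart in Itga4 itself, so its unadjusted p below 0.05 with 22 is no independent result. Itga4 differed by -0.52 in MABsallo and 1.19 in MABsallo-VEGF against saline (SE 0.98, adjusted p = 1 and 0.89), at a depth where 1 read is worth 1.67 to 4.15 normalized counts in these groups, so that small differences were not detectable. Between the 2 recovered MABsallo-VEGF urethras and the other 2, Itga4 had 3.63 and 5.70 against 6.21 and 15.8, Itgav 7.26 and 31.4 against 21.7 and 12.6, and Fn1 7436 and 3640 against 13381 and 3546. With 2 against 2 no test was run.

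The rest of the family was read from gene lists. Of 13 other alpha subunits tested, 0 were called at 3d in MABsallo against saline, with a median log2 fold change of 0.38 against 0.07 over all genes. The share of all genes called was 12.3% with 24 libraries and 18.1% with 22. Itga8, which pairs with beta 1 in smooth muscle and mesenchyme, had the smallest adjusted p, at 1.16 (SE 0.44, adjusted p = 0.074). With 22 libraries 1 was called, Itga7, a laminin receptor of muscle fibres, at -1.27 (SE 0.45, adjusted p = 0.0455). Of 6 other beta subunits 0 were called, with a median of -0.33, and Itgb4, the hemidesmosome subunit of epithelia, stood at -0.80 (SE 0.27, adjusted p = 0.0475). With 22 libraries 1 was called, Itgb4, at -1.04 (SE 0.27, adjusted p = 0.00801). Itgb2, the leukocyte subunit, differed by -1.67 (SE 0.74, adjusted p = 0.124).

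Among 8 tested genes for other ligands of alpha 4 and alpha 9, 1 was called in MABsallo against saline at 3d, a share close to the 12.3% of all genes, with a list median of -0.39. This was Thbs1, encoding thrombospondin 1, higher by 5.05 (SE 1.33, adjusted p = 0.0175). In MABsallo-VEGF Thbs1 stood at 3.92 (SE 1.33, adjusted p = 0.137) and none of the 8 was called. With 22 libraries 18.1% of all genes were called in MABsallo and 13.6% in MABsallo-VEGF. Thbs1 was called in both, by 6.83 (SE 1.04, adjusted p = 0.000147) and 6.40 (SE 1.11, adjusted p = 0.000715). Jam2, encoding a junctional adhesion molecule of endothelium, was then lower in both, by -1.12 (SE 0.24, adjusted p = 0.0024) and -1.05 (SE 0.26, adjusted p = 0.008). Madcam1, encoding the ligand of alpha 4 beta 7, had too few reads to be tested and none in any cell-treated library of 3d.

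Of 12 genes around the fibronectin matrix, 3 were higher and 1 lower in MABsallo at 3d, where 12.3% of all genes were called, with a list median of -0.31. Tns1, encoding tensin 1, which ties integrins to actin at fibrillar adhesions, was higher by 4.51 (SE 1.03, adjusted p = 0.00984). Nid1 and Lamc1, encoding the basement membrane proteins nidogen 1 and laminin gamma 1, were higher by 2.54 (SE 0.86, adjusted p = 0.0487) and 1.34 (SE 0.39, adjusted p = 0.0265). Fbln1, encoding fibulin 1, was lower, at -2.05 (SE 0.53, adjusted p = 0.0161). None was called in MABsallo-VEGF with 24 libraries, and with 22 the counts were 3 higher and 2 lower. The shares of all genes called there were 0.0307% and 13.6%.

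Of 32 genes acting at the cytoplasmic side of integrins, 3 were higher in MABsallo at 3d and none lower, with a median of -0.13, a share no larger than the 12.3% of all genes. They were Ptk2, encoding focal adhesion kinase, by 3.58 (SE 1.01, adjusted p = 0.0227), Crk, an adaptor, by 4.32 (SE 1.25, adjusted p = 0.0248), and Lims1, encoding PINCH1, by 2.14 (SE 0.70, adjusted p = 0.043). In MABsallo-VEGF 0 of the 32 were called with 24 libraries and 2 with 22, Ptk2 by 4.10 and Crk by 4.77 (adjusted p = 0.0119 and 0.015). The shares of all genes called there were 0.0307% and 13.6%.

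Markers of the cells that can carry alpha 4 or its ligands were read in the same libraries. Of 17 leukocyte markers tested at 3d 4 fell in MABsallo against saline and none rose, where 12.3% of all genes were called. The summed counts of all 18 were 2961 to 10459 in MABsallo, 17261 to 39537 in saline and 4969 to 34763 in MABsallo-VEGF, and Lyz2 alone made up a mean of 4297 in MABsallo and 18135 in saline. The 4 were Cpa3 and Tpsb2 of mast cells, by -5.76 and -5.58 (adjusted p = 0.0059 for both), and Lyz2 and Csf1r of myeloid cells, by -2.22 and -2.11 (adjusted p = 0.0159 and 0.0175). Ptprc, which encodes CD45 of all leukocytes, ranged from 440 to 1330 in MABsallo, 390 to 1422 in saline and 589 to 2167 in MABsallo-VEGF. Cd4 and Itgam, of T cells and myeloid cells, had means of 48.9 and 52.1 in MABsallo against 11.5 and 22.8 in saline and were not called. Ms4a1 of B cells had reads in 1 MABsallo library of 3d and in no other. At 7d the summed counts of all 18 were 16595 to 21666 in saline, 9318 to 22676 in MABsallo and 6435 to 13284 in MABsallo-VEGF. Mean Cd4 was then 0, 0.77 and 1.81 in the same order. In MABsallo-VEGF, 3d against 7d, Ptprc and Cd4 were higher at 3d by 2.59 and 4.04 (limma adjusted p = 0.000259 and 0.00576). They were the only leukocyte markers called there, where 15.3% of all genes were called. The part of leukocytes in the counts of Itga4 was not tested.

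Endothelial markers, 7 of 8 in the table, summed to 4175 to 8217 in MABsallo, 4223 to 12618 in MABsallo-VEGF and 7496 to 11814 in saline at 3d, and Tie1 and Emcn were lower in MABsallo by -1.33 and -1.37 (adjusted p = 0.0142 and 0.0196). Among 7 endothelial adhesion genes Selp, encoding P-selectin, was lower by -1.47 (adjusted p = 0.0212) and Cd34 higher by 3.31 (adjusted p = 0.0273). Over all genes 12.3% were called between MABsallo and saline. Fibroblast markers, 7 of 8 in the table, summed to 56325 to 304669, 96551 to 642573 and 342962 to 517658 in the same order, with Lum and Dcn lower by -1.69 and -1.29 (adjusted p = 0.0218 and 0.0426).

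Myogenic markers, 10 of 10 in the table, were high in the same groups as Itga4, Itga9 and Itgav. They summed to 13639 to 32320 in MABsallo and 13198 to 18519 in MABsallo-VEGF at 3d, against 3341 to 9696 in saline at 3d and 1828 to 7174 over the 12 libraries of 7d. In MABsallo against saline 4 of 10 were higher and none lower, where 12.3% of all genes were called. Myh8 and Myh3, the myosins of developing fibres, were higher by 4.51 (adjusted p = 0.0059) and 2.19 (adjusted p = 0.0431), and Pax3 and Pax7 of muscle progenitors by 3.79 (adjusted p = 0.012) and 2.96 (adjusted p = 0.0455). None was called in MABsallo-VEGF with 24 libraries, and 5 of 10 with 22, where 0.0307% and 13.6% of all genes were called. Their part in the counts of the integrins was not tested, nor was that of the injected cells.

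Of 8 Schwann cell markers, 8 smooth muscle markers and 11 markers of urothelium tested, none was called at 3d in MABsallo against saline with 24 libraries, with medians of -1.75, 0.33 and 0.71. Over all genes 12.3% were called in this comparison. Of 7 markers of mature striated muscle 2 were higher, Tnnt3 by 1.55 and Mylpf by 1.42 (adjusted p = 0.0345 and 0.0483). Of 13 mRNAs encoded in mitochondria 3 were higher, Mt-nd6, Mt-atp8 and Mt-nd4l, by 4.31, 1.96 and 1.49 (adjusted p = 0.0059, 0.0229 and 0.0294). Markers of striated muscle, smooth muscle and urothelium had reads in all 24 libraries, which does not show that the tissue pieces were alike. Urothelial markers summed to 1952 to 20989 in saline at 3d and 25530 to 84653 in saline at 7d. Of these, Upk2 and Krt7 were lower at 3d by -6.00 and -3.57 (limma adjusted p = 0.0103 and 0.016), and were not called with 22 libraries (adjusted p = 0.0597 and 0.0522). Upk3b, a uroplakin among the 11 not called in MABsallo against saline, was at 0 in all 8 cell-treated libraries of 3d.

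The share of reads on 7SL-type RNA, summed over 33 rows of the table, was high in the same 3d libraries as Itga4, Itga9 and Itgav. It was 0.00216% to 0.0861% in MABsallo at 3d, 0.00309% to 0.0211% in MABsallo-VEGF replicates 1 to 3 and 0.00434% in saline 3d replicate 6. In the remaining saline libraries at 3d, in MABsallo-VEGF replicate 4 and at 7d it did not pass 0.00013%. After every library was thinned to 2170695 reads, 14089 to 14739 genes were detected in MABsallo and 14198 to 14640 in MABsallo-VEGF at 3d, 13341 to 14610 in saline at 3d and 13319 to 13898 at 7d. MABsallo replicate 3 had the fewest reads, the largest 7SL-type share and the highest counts of Itga4, Itga9 and Itgav of all libraries. What these features of the libraries contributed to the counts was not tested.

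**Figure D4:**
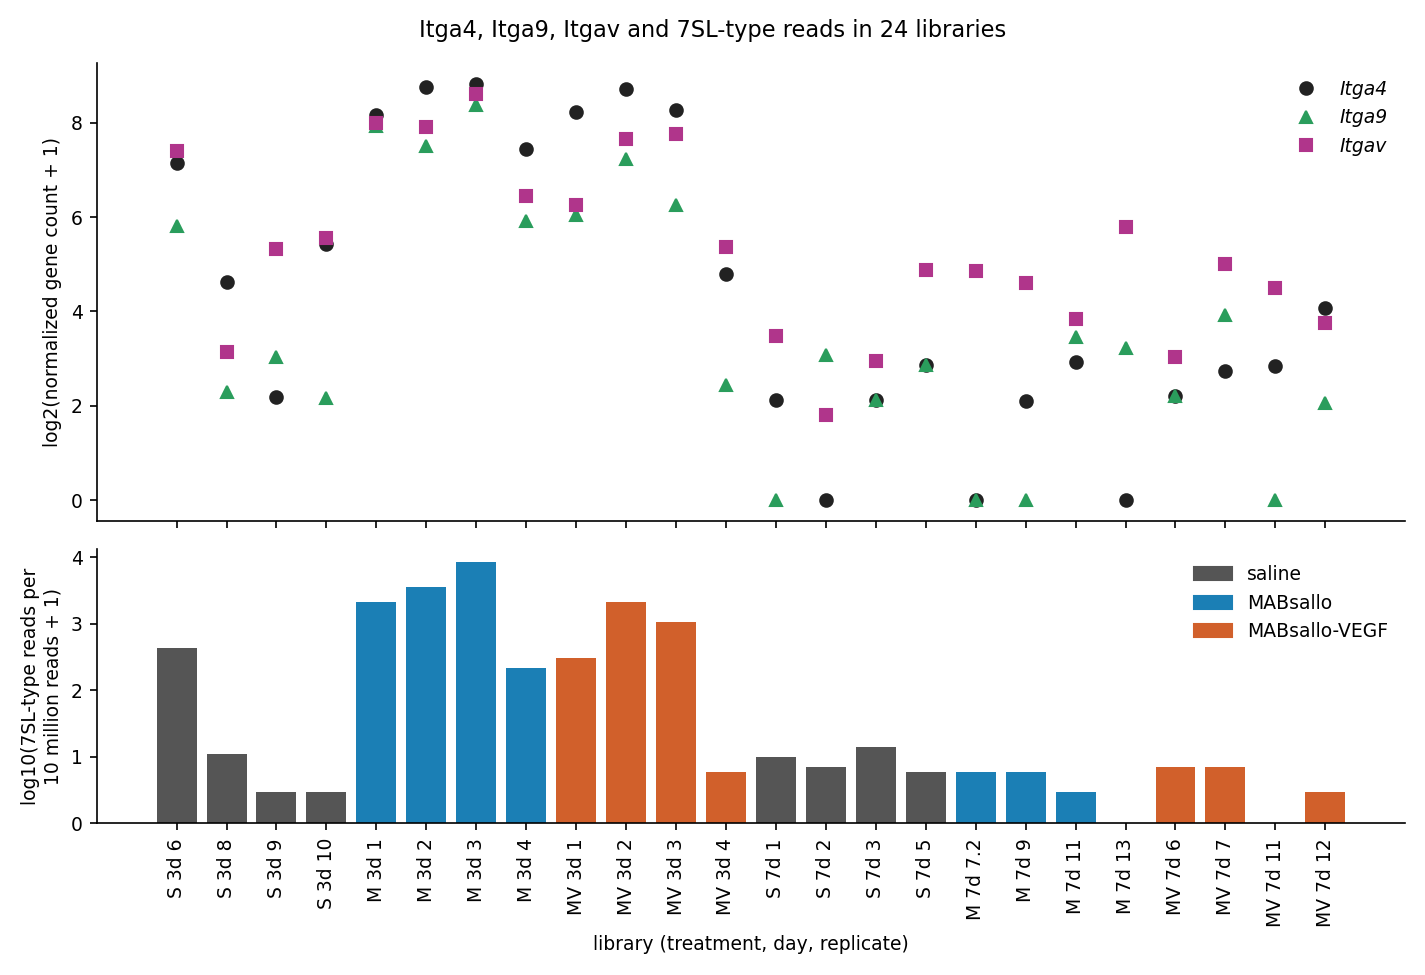
Normalized gene counts of Itga4, Itga9 and Itgav on a log2(count + 1) scale (upper vertical axis) and 7SL-type reads at equal depth on a log10 scale after adding 1 (lower vertical axis) in each of the 24 libraries (horizontal axis: S, saline; M, MABsallo; MV, MABsallo-VEGF; day and replicate). Saline 3d replicate 6 is high and MABsallo-VEGF 3d replicate 4 low in all 4 measures against the other libraries of their groups.

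Over all 24 libraries the genes whose pattern lay nearest to that of Itga4 were found by the root mean square difference of their log2 values, each centred on its own mean, among 12754 genes with a mean count of at least 20. The nearest was Fat4, a large atypical cadherin, at 1.07, followed by Usp25, a deubiquitinase, at 1.12. Gli3, a transcription factor of hedgehog signalling, Arhgap28 and the row ENSRNOG00000014846 named Anp32a each stood at 1.15. Fat4 had 65.1 to 277 normalized counts in MABsallo at 3d, 8.91 to 142 in MABsallo-VEGF, 10.6 to 51.6 in saline and 0 to 6.21 at 7d. Of the partners Itga9 ranked 281 at 1.67 and Itgav 576 at 1.86, and Itgb1, Vcam1, Fn1, Itga5 and Itgb7 ranked 7031, 7835, 9215, 10416 and 10740. The points share their libraries and size factors, and the likeness is a description only.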

How the data were processed

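RNA from 24 rat urethras was sequenced with a 3ʹ mRNA kit (Lexogen QuantSeq), in single-end reads of 50 bases. Per the labels and the study's methods, reads were aligned with HISAT2 to Rnor6.0 and counted per gene with HTSeq, and the deposited values are normalized gene counts, signal values that the authors made by dividing counts by DESeq2 size factors. The annotation release and the strand setting are not given in the sources used here. A 3ʹ library samples the transcript end, so levels were not compared between genes.

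Whole reads were recovered from the steps of the deposited values, and 100% of values were whole within 0.01 reads. The 32883 genes held 2170695 to 10166052 reads per library. A count of 0 allows up to 3 reads, which covers counting error only. Differences were tested with limma 3.58.1 (R 4.3.3) on log2(count + 1), with a mean count of at least 2, in 1 fit of 6 groups, two-sided, with Benjamini-Hochberg adjustment over all 16287 genes. A fold change on this scale understates the change of low genes. DESeq2 1.42.0 and edgeR 4.0.16 on recovered reads were alternatives. The method was tested on simulated data.

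The 8 genes and all lists were chosen with earlier results of these data known, and so were the 2 libraries left out in the fit of 22. Named from each list were up to 4 called genes with the smallest adjusted p, or up to 2 where none was called. Ptprc, Cd4, Itgam, Ms4a1, Madcam1, Upk3b and Itga7 and Itgb4 as called in 22 libraries were named outside this rule, after their values were seen. Only promoter windows were taken from RefSeq (GRCr8), and no coordinates were converted between builds.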

Additional observations from a re-analysis of the deposited data

Results flagged for a closer look

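Of 48 groups of 4 libraries examined, 8 genes in 6 groups, 2 held a library far from the other 3, and chance alone gives about 1 in 20. Itga9 in saline at 3d had 55.1 normalized counts in replicate 6 against 3.9, 7.1 and 3.5 in the others, a gap of 0.93 of the range. This is also the saline library with the highest 7SL-type share, and what either contributed was not tested. Itga5 in MABsallo-VEGF at 7d had 312 in replicate 6 against 142.6, 152.1 and 119.8, a gap of 0.832 of the range.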

How the results depend on the processing

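In MABsallo against saline at 3d, 2 of 7 partners were called; the number was 1 without a filter on low values, with quantile normalization, with totals made equal, by DESeq2 and by edgeR, 0 in a fit of only the groups compared, and 0 to 2 with single libraries left out. In MABsallo-VEGF against saline at 3d it was 0, and 2 with 22 libraries by limma, DESeq2 and edgeR. In saline, 3d against 7d, it was 0, but 2 with sample quality weights and 1 by DESeq2, and 0 to 1 with libraries left out. In MABsallo-VEGF, 3d against 7d, it was 2, but 1 in a fit of only the groups compared, 0 with quantile normalization and 0 to 2 with libraries left out. The interaction of MABsallo and day had 0 partners called, and 1 with quality weights and with 22 libraries by limma and DESeq2. The difference of Itga4 between MABsallo-VEGF and MABsallo at 3d turned from -0.80 to 0.10 with 22 libraries or without MABsallo-VEGF replicate 4 alone, and to 0.024 by DESeq2 and 0.033 by edgeR with 22, and ran from -1.20 to 0.10 over the libraries left out in turn. Of the 5 genes nearest to Itga4 in pattern, 2 stayed with a pseudocount of 5 and 3 with quantile normalization. The causes were not tested.

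Over all genes the number called in MABsallo-VEGF against saline at 3d was 5, but 181 with a pseudocount of 5, 1497 with quality weights, 2213 with 22 libraries, 397 by DESeq2 and 1 by edgeR. In MABsallo against saline at 3d it was 1997, but 5 in a fit of the 2 groups alone, and higher genes made up 76.7% of calls against 56.3% with quantile normalization and 51.9% with totals made equal, as the median of all genes moved from 0.07 to -0.13 and -0.19. In 3d against 7d the share was 73.7% against 54.5% and 59.2% in MABsallo and 85.4% against 68.5% and 74.8% in MABsallo-VEGF. In saline, 3d against 7d, 520 genes were called, but 1852 with quality weights, 31 with 22 libraries, 1386 by DESeq2 and 988 by edgeR.

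MABsallo and MABsallo-VEGF at 3d share replicate numbers 1 to 4. With the number as a replicate block 0 partners and 0 genes were called, and same-numbered libraries correlated at 0.222, 0.151, 0.073 and 0.254 in their deviations from the group means. The same-numbered library was the best match for MABsallo replicates 1, 2 and 4, while replicate 3 correlated at 0.079 with replicate 2 and at 0.073 with replicate 3. Differently numbered libraries correlated at -0.225 to 0.2. Whether same-numbered libraries share more than the number was not tested, and the other fits took them as unpaired. Low read numbers limit Itga4 and Itga9 at 7d.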
